A study of Mus musculus with 36 samples.

Results

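The 3 NR4A orphan nuclear receptors, *Nr4a1*, *Nr4a2* and *Nr4a3*, were followed as transcripts in C2C12 myotubes. They were taken by gene name from a table of 55416 genes. All 3 were found, and all 3 were among the 13995 genes that passed the filter on low counts. C2C12 is a mouse myoblast line that fuses into contractile myotubes when serum is lowered. Every well was on day 4 of differentiation, 24 h after transfection with an antisense locked nucleic acid (LNA) that was either a negative control or directed at the long non-coding RNA *Tug1*. The myotubes then stayed unstimulated with the electrodes in the medium (Rest), were taken straight after 3 h of electrical pulse stimulation (EPS 0h), or were taken 3 h after it had ended (EPS 3h). EPS, which makes myotubes contract, was given at 13 V and 66 Hz with 2 ms pulses, alternating 5 s of pulses with a pause of 5 s. The 6 groups are named Rest control, Rest *Tug1* KD, EPS 0h control, EPS 0h *Tug1* KD, EPS 3h control and EPS 3h *Tug1* KD, with 6 libraries of poly-A RNA in each. Every group came from a single cell line, and each library was 1 well, with the wells drawn from 2 independent experiments. The main fit has no term for the experiment. Its p-values therefore measure the spread between wells of this line together with any difference between the 2 experiments.

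NR4A receptors are transcription factors whose ligand pocket is filled by bulky side chains, so they are regulated mainly by how much of them is made. They are immediate early genes, induced by cyclic AMP, calcium and stress signals, and they bind the NBRE element as monomers, while *Nr4a1* and *Nr4a2* can also pair with retinoid X receptors. In skeletal muscle they are known as genes that respond to exercise and as regulators of glucose and lipid use, oxidative metabolism and muscle growth.

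The 3 genes lie apart in the genome (GRCm39). *Nr4a1* (Nur77, ENSMUSG00000023034) is on the plus strand at chr15:101151980-101172681, *Nr4a2* (Nurr1, ENSMUSG00000026826) is on the minus strand at chr2:56996842-57014331, and *Nr4a3* (Nor1, ENSMUSG00000028341) is on the plus strand at chr4:48045153-48086447. Their canonical transcripts in GENCODE vM39 have 7, 8 and 8 exons. Since the members moved together with stimulation, the 250 bases before each canonical start were searched on both strands for elements that cyclic AMP, calcium and serum signals are known to use. The letters were TGACGTCA for the full cyclic AMP response element (CRE), TGACG for its core (which every full CRE also holds), TGANTCA for AP-1, AAAGGTCA for the NBRE and GGGCGG for the GC box, and the CArG box and the MEF2 element were searched by their usual consensus. Over the same window of 21770 protein-coding genes, the full CRE was found in 1.69%, the CRE core in 18%, AP-1 in 6.17%, the NBRE in 1.19%, the GC box in 36.3%, the CArG box in 1.4% and the MEF2 element in 2.79%.

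The stretches below are shown because they hold the CRE core and MEF2 matches, written 5′ to 3′ on the gene's strand, with CRE cores or MEF2 elements in capitals. The *Nr4a1* stretches are at chr15:101164490-101164519, chr15:101164423-101164442 and chr15:101164457-101164476, and that of *Nr4a3* is the 100 bases before its start, chr4:48045053-48045152.
Nr4a1 CRE cores: cctgCGTCAatggaaccccgcgtgCGTCAc
Nr4a1 MEF2 element, distal: agctaCTATATTTAGccggc
Nr4a1 MEF2 element, proximal: gaaaaCTATTTATAGatcaa
Nr4a3 CRE cores: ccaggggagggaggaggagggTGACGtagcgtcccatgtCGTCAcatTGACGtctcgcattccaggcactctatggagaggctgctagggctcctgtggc

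*Nr4a1* held 2 CRE cores, a number that 4.01% of windows reach, and 2 MEF2 elements, which 0.11% reach. These matches overlap annotated exons, which cover 143 of the 250 bases when exons of any gene on either strand are counted. Another 3 annotated genes overlap *Nr4a1*, and whose exons these are was not resolved. The *Nr4a1* window also held 2 GC boxes, a number that 17.1% of windows reach. They begin 107 and 47 bases before its start, outside annotated exons, and the windows of *Nr4a2* and *Nr4a3* held none. *Nr4a3* held 3 CRE cores, beginning 79, 61 and 53 bases before its start, and 0.657% of windows hold 3 or more. The *Nr4a2* window held none of the 7 elements and lies within an exon of another *Nr4a2* transcript over all 250 bases. Matches of letters are a description of these windows, and binding was not measured.

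The libraries held 17005079 to 24181167 counts each, with a median of 19439667.5. The 9 myotube markers, among them *Myog*, *Ckm* and *Acta1*, summed to 16979 to 24298 RPM (reads of a gene scaled to a common library total, here the TMM-scaled one) over all 36 libraries. The 8 markers of immune, endothelial, fat and nerve cells summed to 0.422 to 1.14 RPM at Rest control and to 2.35 to 5.69 RPM at EPS 3h control, with 6 of 8 below 1 RPM on average even there, and the part of these low levels in the results was not tested. The 6 markers of myoblasts and cycling cells summed to 136 to 176 RPM at Rest control and 122 to 153 RPM at Rest *Tug1* KD. At EPS 0h they summed to 174 to 209.8 RPM in control and 155 to 201 RPM in *Tug1* KD myotubes, and at EPS 3h to 122 to 193 RPM over both LNAs. *Tug1*, the targeted transcript, averaged 48.3, 67.3 and 81.1 RPM in control myotubes at Rest, EPS 0h and EPS 3h, and 27.2, 45.4 and 56.8 RPM in *Tug1* KD myotubes. It was lower with *Tug1* KD by 0.83 (log2 fold change -0.83, FDR = 0.000915), 0.57 (-0.57, FDR = 0.0178) and 0.51 (-0.51, FDR = 0.0414) in the 3 conditions, and overlapped between the LNAs after EPS. Replicates 1 to 3 and 4 to 6 formed separate sets in 5 of 6 groups on the first component of the within-group deviations, which held 49.1% of that variance, so values within each set are given beside the results below.

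*Nr4a1* had the highest level of the 3 per kilobase. At Rest it ranged from 40.4 to 86.7 RPM in control myotubes (median 59.2) and from 33.2 to 48.8 RPM in *Tug1* KD myotubes (median 43.3). At EPS 0h it ranged from 128 to 200.1 RPM (median 165) in control and from 76.9 to 113 RPM (median 92.1) in *Tug1* KD myotubes. At EPS 3h the ranges were 142 to 195 RPM (median 180.2) and 91.6 to 152 RPM (median 111). No stimulated library of either LNA fell within the range of its own Rest group, and the 2 LNAs did not overlap at EPS 0h, whereas they overlapped at Rest and at EPS 3h. The share of all genes tested that part in this way was not counted. Such overlaps, here and below, are therefore a description of the levels alone.

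*Nr4a2* was second per kilobase at Rest. There it ranged from 9.18 to 14.6 RPM in control (median 11.0) and from 4.48 to 9.90 RPM in *Tug1* KD myotubes (median 6.46). At EPS 0h the ranges were 15.7 to 25.5 RPM (median 19.9) and 10.2 to 15.1 RPM (median 11.4), with no overlap between the LNAs. At EPS 3h they were 11.1 to 23.7 RPM (median 14.8) and 7.45 to 14.1 RPM (median 10.4), and each overlapped its Rest group.

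*Nr4a3* was the lowest of the 3 per kilobase at Rest. There it ranged from 1.74 to 3.60 RPM in control (median 2.60) and from 1.35 to 2.72 RPM in *Tug1* KD myotubes (median 2.23), which is 30 to 69 reads a library over both groups. At EPS 0h it reached 10.6 to 20.5 RPM (median 15.4) and 7.43 to 16.7 RPM (median 12.2). At EPS 3h it held at 11.6 to 19.6 RPM (median 13.4) and 7.97 to 18.6 RPM (median 11.1). Stimulated and resting libraries were far apart, and the LNAs overlapped in every condition.

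**Figure D1:**
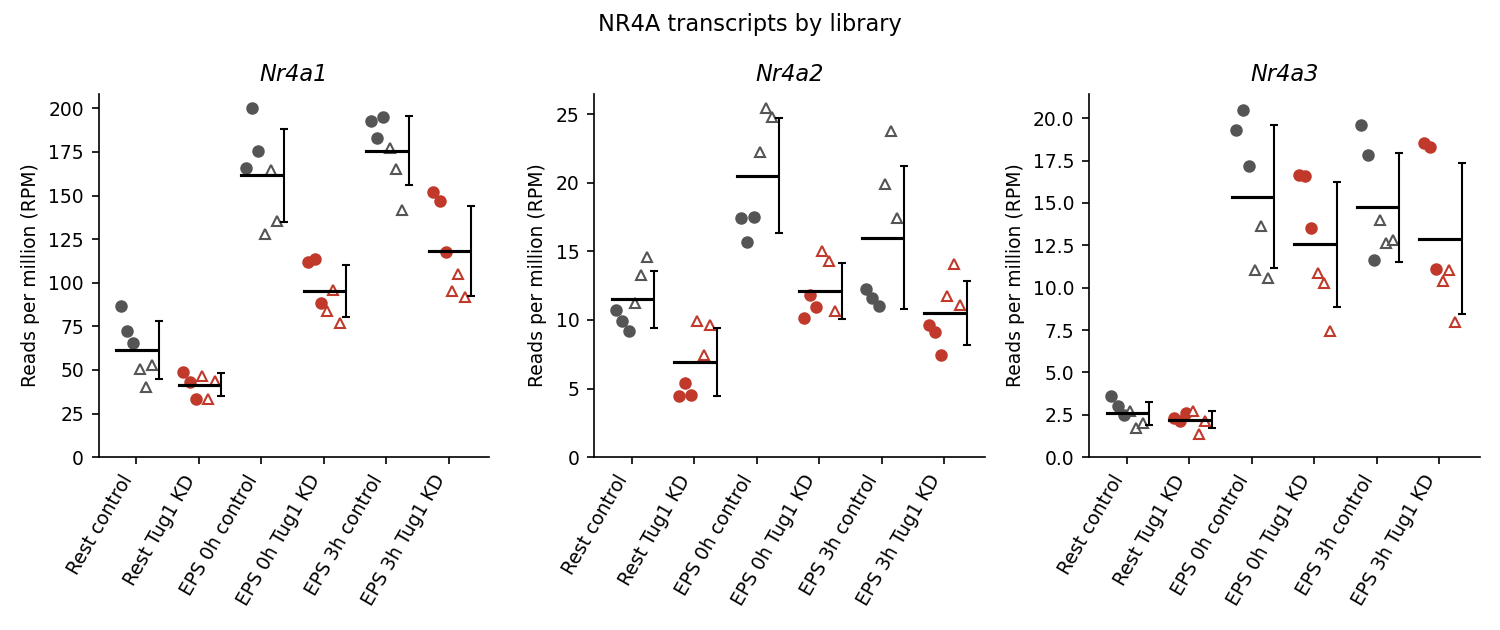
RPM of each NR4A transcript (y axis) in every library of the 6 groups (x axis), control in grey and Tug1 KD in red. Filled circles are replicates 1 to 3, open triangles replicates 4 to 6, horizontal bars the mean and vertical bars 1 SD (n = 6). Nr4a1 and Nr4a3 rise in both LNAs with EPS, and the red points of Nr4a1 and Nr4a2 lie lower than the grey ones in each condition on average.

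Ordered by mean level (± SD, n = 6), *Nr4a1* ran from Rest *Tug1* KD (41.5 ± 6.69 RPM) through Rest control (61.4 ± 16.8), EPS 0h *Tug1* KD (95 ± 14.9), EPS 3h *Tug1* KD (118 ± 25.9) and EPS 0h control (162 ± 26.6) to EPS 3h control (176 ± 19.8). The step between the 2 stimulated control groups was smaller than the SD of either. The step between the 2 stimulated *Tug1* KD groups, 23.1 RPM, was smaller only than the SD of the higher group. For *Nr4a2* the order was Rest *Tug1* KD (6.92 ± 2.47 RPM), EPS 3h *Tug1* KD (10.5 ± 2.31), Rest control (11.5 ± 2.07), EPS 0h *Tug1* KD (12.1 ± 2.04), EPS 3h control (16.0 ± 5.19) and EPS 0h control (20.5 ± 4.18). Of those 5 steps, the first alone exceeded the SD of both its groups, and both stimulated *Tug1* KD groups lay within 1 SD of Rest control. For *Nr4a3* the step that exceeded the SD was the one from Rest control (2.59 ± 0.669 RPM) to EPS 0h *Tug1* KD (12.6 ± 3.70). The Rest groups sat below it and all 4 stimulated groups, up to 15.4 ± 4.24 RPM at EPS 0h control, sat above it.

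Levels were compared between genes only per kilobase. Over the union of annotated exons (10903, 8207 and 5987 bases for *Nr4a1*, *Nr4a2* and *Nr4a3*), *Nr4a1* made up 74.5% ± 6.22 of the family's summed per-length level in Rest control libraries, *Nr4a2* 19.7% ± 6.52 and *Nr4a3* 5.78% ± 0.757 (SD, n = 6). At EPS 0h control the shares were 74.3% ± 2.20, 13.0% ± 3.96 and 12.7% ± 2.15, and at EPS 3h control 78.4% ± 3.43, 9.65% ± 3.50 and 12% ± 2.11. The *Nr4a1* share thus stayed near its resting value while those of *Nr4a2* and *Nr4a3* approached each other. With the length of the canonical transcript (2548, 4764 and 5722 bases), *Nr4a1* took 88.7% at Rest control and *Nr4a3* 1.68%, rising to 3.77% at EPS 0h, so the size of each share depends on which transcripts the counts came from. On that length *Nr4a2* stayed higher than *Nr4a3* at EPS 0h control, at 6.35%. Both lengths are from GENCODE vM39, while the paper names an Ensembl version for its alignment, so the lengths that were counted may differ.

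The first question was how the 3 transcripts responded to stimulation. In control myotubes all 3 had risen by EPS 0h. *Nr4a3* rose by a log2 fold change of 2.57 (SE 0.232, FDR = 8.8e-11), a 5.93-fold increase. *Nr4a1* rose by 1.40 (SE 0.154, FDR = 6.15e-09), or 2.63-fold. *Nr4a2* rose by 0.84 (SE 0.197, FDR = 0.000931), or 1.78-fold. In each case all 6 stimulated libraries lay above all 6 resting ones, a description for which the share of all genes was not counted. The summed markers of myoblasts and cycling cells were also higher at EPS 0h, overlapping Rest in control and not in *Tug1* KD myotubes, and their part in these rises was not tested. In such bulk RNA more cells of a kind and more RNA per cell cannot be told apart. Among all genes tested, 20.5% were called higher in this comparison, and 235 of 13995 had a larger log2 fold change than *Nr4a3*, against 605 for *Nr4a1* and 1173 for *Nr4a2*. In *Tug1* KD myotubes, where 24.4% of genes were called higher, the increases were 2.5 for *Nr4a3* (SE 0.236, FDR = 1.48e-10), 1.20 for *Nr4a1* (SE 0.154, FDR = 9.14e-08) and 0.81 for *Nr4a2* (SE 0.202, FDR = 0.0014). These rises were called in replicates 1 to 3 and in replicates 4 to 6 alone, with *Nr4a2* between 0.56 and 1.20, *Nr4a1* between 1.05 and 1.57 and *Nr4a3* between 2.20 and 2.73.

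The second question was whether the rise lasted into recovery. After 3 h of recovery *Nr4a3* and *Nr4a1* were still far above Rest, while the *Nr4a2* rise was smaller and less certain. In control myotubes the log2 fold changes against Rest were 2.51 for *Nr4a3* (SE 0.232, FDR = 3.25e-11), 1.52 for *Nr4a1* (SE 0.154, FDR = 2.78e-10) and 0.48 for *Nr4a2* (SE 0.197, FDR = 0.0406). In *Tug1* KD myotubes they were 2.54 (SE 0.236, FDR = 2.77e-11), 1.51 (SE 0.155, FDR = 2.9e-10) and 0.60 (SE 0.203, FDR = 0.0131). The shares of all genes called higher were 26.1% in control and 26.2% in *Tug1* KD myotubes. For *Nr4a2* in control myotubes 3 of 6 libraries exceeded every resting library. Its call was lost in replicates 1 to 3 alone (0.25, FDR = 0.126, against 0.64, FDR = 0.00183, in replicates 4 to 6) and when replicate 2, 4 or 5 was left out (0.52, 0.40 and 0.38). Without replicate 1 the call in *Tug1* KD myotubes was lost as well (0.53, FDR = 0.0511). With scaling by library size alone, which moved the median of all genes by -0.169 in control and -0.166 in *Tug1* KD myotubes, *Nr4a2* stood at 0.32 (FDR = 0.174) and 0.44 (FDR = 0.0672). The Rest wells held the electrodes for as long as EPS lasted, and whether any of them then waited through the recovery period is not given in the sources used here, so 3 h of recovery and 3 further hours in culture cannot be told apart.

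Between EPS 0h and EPS 3h no member was called in either LNA, in comparisons that called 16.6% of genes in control and 15.7% in *Tug1* KD myotubes. The log2 fold changes in control myotubes were 0.12 for *Nr4a1* (95% confidence interval -0.18 to 0.43), -0.36 for *Nr4a2* (-0.75 to 0.04) and -0.06 for *Nr4a3* (-0.49 to 0.37). In *Tug1* KD myotubes they were 0.31 (0.0074 to 0.62, FDR = 0.173), -0.21 (-0.61 to 0.20) and 0.04 (-0.39 to 0.47). With the replicate number as a block, *Nr4a1* in *Tug1* KD myotubes passed the threshold (0.30, FDR = 0.0373). With the replicate set as a term, *Nr4a2* in control myotubes did too (-0.38, FDR = 0.0096), and its values were -0.52 in replicates 1 to 3 (FDR = 0.0109) and -0.25 in replicates 4 to 6 (FDR = 0.304).

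**Figure D2:**
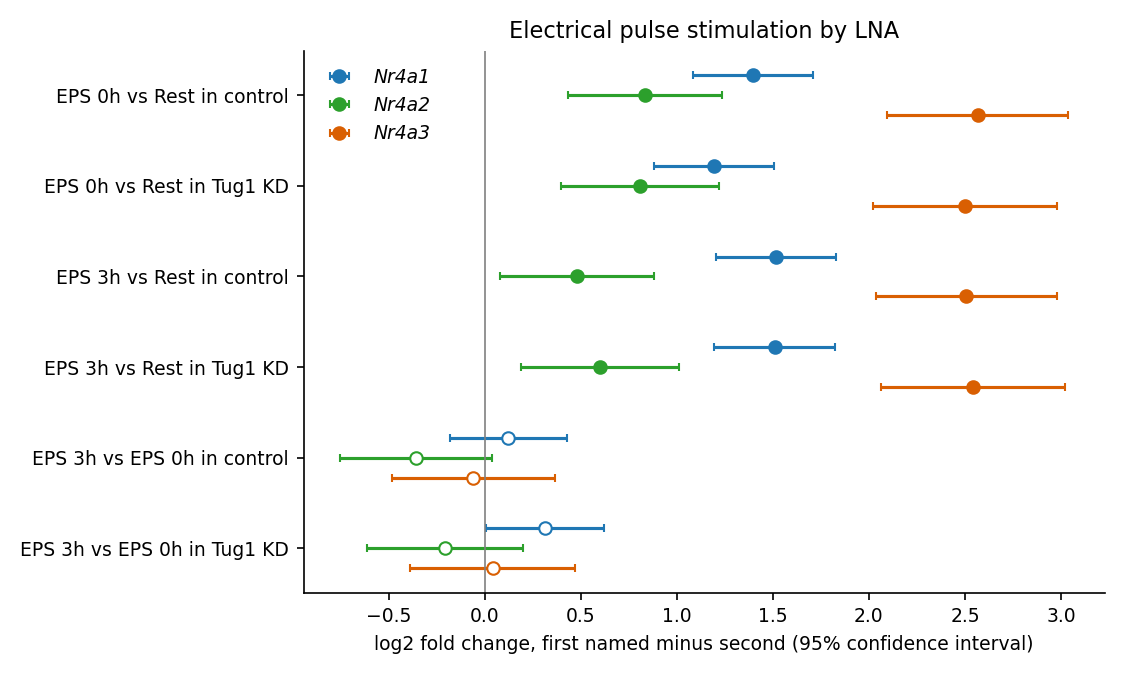
Log2 fold change (x axis) of the 3 transcripts for each stimulation comparison (y axis), with 95% confidence intervals from edgeR, n = 6 libraries a group. Filled points passed an FDR under 0.05. Nr4a3 lies at 2.5 to 2.57 in all 4 comparisons with Rest, Nr4a1 at 1.20 to 1.52 and Nr4a2 at 0.48 to 0.84, and the points for EPS 3h against EPS 0h are open.

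The third question was what *Tug1* knockdown did to the members. *Nr4a1* and *Nr4a2* were lower with *Tug1* KD in all 3 conditions, and *Nr4a3* was not called in any. *Nr4a1* fell by 0.57 at Rest (log2 fold change -0.57, SE 0.153, FDR = 0.0116), 0.77 at EPS 0h (-0.77, SE 0.151, FDR = 0.000406) and 0.57 at EPS 3h (-0.57, SE 0.151, FDR = 0.00918), that is, it fell by 32.4%, fell by 41.2% and fell by 32.8%. *Nr4a2* fell by 0.73 (SE 0.202, FDR = 0.0144), 0.76 (SE 0.197, FDR = 0.00683) and 0.61 (SE 0.199, FDR = 0.0409), that is, it fell by 39.6%, fell by 40.8% and fell by 34.3%. Every one of the 6 *Tug1* KD libraries lay below the control mean for both genes in each condition, and the share of all genes that did so was not counted. *Nr4a3* stood at -0.23 (95% confidence interval -0.73 to 0.27, FDR = 0.693), -0.30 (-0.72 to 0.13, FDR = 0.402) and -0.19 (-0.62 to 0.24, FDR = 0.65), intervals that include no change and, at Rest and EPS 3h, also the decrease estimated for *Nr4a1*. Genes called lower made up 4.47% of those tested at Rest, 6.07% at EPS 0h and 5.11% at EPS 3h. With the replicate number as a block the genes called in either direction rose from 2005 to 3406 at EPS 0h and from 1608 to 2878 at EPS 3h, and no call for a member changed in these comparisons.

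The decrease of *Nr4a1* at Rest rested mainly on replicates 1 to 3, where it was -0.84 (FDR = 0.00201), against -0.22 (FDR = 0.297) in replicates 4 to 6. In those sets control myotubes held 74.9 and 47.9 RPM and *Tug1* KD myotubes 41.8 and 41.2 RPM, so it was the control level that differed between the sets. Its call was also lost without replicate 3 (-0.49, FDR = 0.0916). At EPS 0h the sets gave -0.77 and -0.74, both called. At EPS 3h they gave -0.45 (FDR = 0.0733) and -0.73 (FDR = 0.00146), and the call was lost without replicate 4 (-0.52, FDR = 0.0563). *Nr4a2* gave -1.04 and -0.53 at Rest, -0.61 and -0.86 at EPS 0h, all called, and -0.41 (FDR = 0.0708) and -0.72 (FDR = 0.00454) at EPS 3h. Leaving out replicate 1 ended the Rest call of *Nr4a2* (-0.65, FDR = 0.0668), and leaving out any 1 of the 6 replicate numbers ended its EPS 3h call (-0.56 to -0.65, FDR 0.0558 to 0.129).

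Averaged over the 3 conditions, a comparison added after the values had been seen, *Nr4a1* was lower with *Tug1* KD by 0.64 (-0.64, SE 0.0876, FDR = 3.97e-07) and *Nr4a2* by 0.70 (-0.70, SE 0.115, FDR = 8.99e-06). These are close in size to *Tug1* itself (-0.64, SE 0.0978, FDR = 2.69e-06), and 17.0% of genes were called lower and 16.1% higher. Replicates 1 to 3 gave -0.69 for both genes, and replicates 4 to 6 gave -0.56 and -0.71. *Nr4a3* averaged -0.24 (SE 0.129, FDR = 0.158), and it was called once the replicate number (-0.25, FDR = 0.0116) or the replicate set (-0.24, FDR = 0.0292) was a term in the fit.

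The last question was whether the response to stimulation differed between the LNAs, tested as the interaction. It was not called for any member. On the log2 scale the EPS 0h response in *Tug1* KD myotubes differed from that in control by -0.20 for *Nr4a1* (95% confidence interval -0.64 to 0.23), -0.03 for *Nr4a2* (-0.60 to 0.55) and -0.07 for *Nr4a3* (-0.73 to 0.59), and the EPS 3h response by -0.01 (-0.45 to 0.43), 0.12 (-0.45 to 0.69) and 0.03 (-0.61 to 0.68). All 6 had an FDR of 1. The same edgeR test called 0% of genes at EPS 0h, with 324 at an unadjusted p under 0.05, and 0.00715% at EPS 3h (1 gene, with 430 at an unadjusted p under 0.05). In all 6 tests of the members the replicate sets went opposite ways, with values of 0.07 to 0.63 in replicates 1 to 3 and of -0.19 to -0.52 in replicates 4 to 6. None of them was called, and the tests share their Rest libraries.

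The gap between the LNAs was also read in RPM, as a description. The *Nr4a1* mean was lower in *Tug1* KD myotubes by 19.9 RPM at Rest, 66.5 RPM at EPS 0h and 57.7 RPM at EPS 3h. Its gain from Rest to EPS 0h was 100.1 RPM with the control LNA, against 53.5 RPM with *Tug1* KD, at fold increases of 2.63 and 2.29. For *Nr4a2* the gain was 9.03 and 5.23 RPM, at 1.78-fold and 1.75-fold. For *Nr4a3* it was 12.8 and 10.3 RPM, at 5.93-fold and 5.66-fold. No test was made on the RPM scale.

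**Figure D3:**
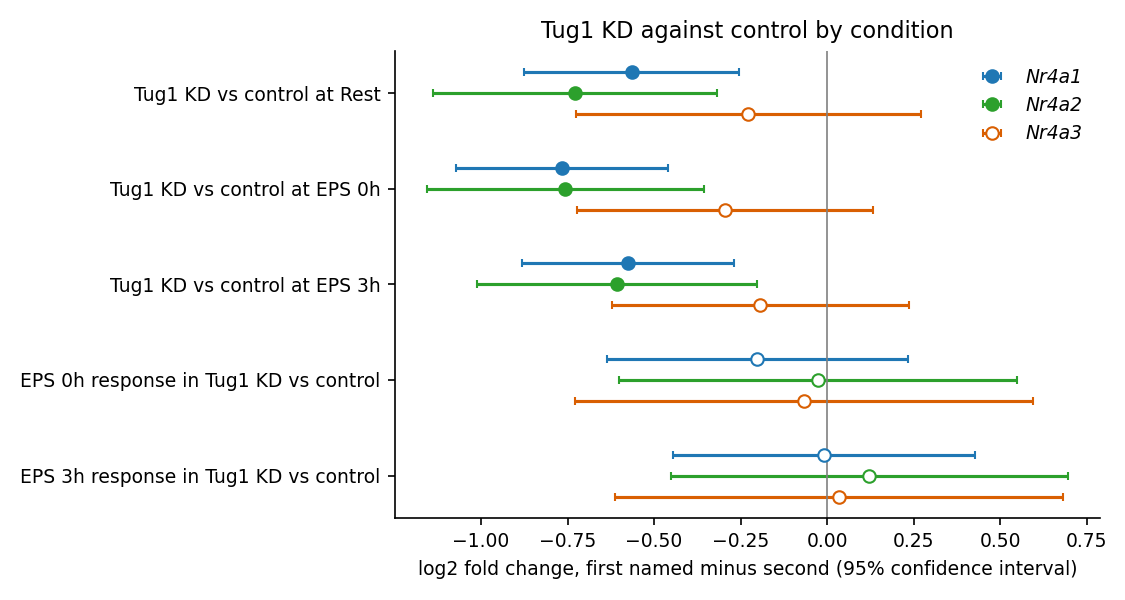
Log2 fold change (x axis) of Tug1 KD against control for the 3 transcripts in each condition, and the difference of the EPS responses between the LNAs (y axis), with 95% confidence intervals from edgeR, n = 6 libraries a group. Filled points passed an FDR under 0.05. Nr4a1 and Nr4a2 lie between -0.57 and -0.77 in all 3 conditions, Nr4a3 lies between -0.19 and -0.30, and the points of the response differences are open with intervals that span 0.

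Ratios between members within a library, which do not depend on its scaling, were compared by exact two-sided permutation tests, 27 in all, with Benjamini-Hochberg adjustment. *Nr4a3* rose against both of the others with stimulation. The log2 ratio of *Nr4a3* over *Nr4a1* went from -4.56 ± 0.18 at Rest control to -3.42 ± 0.22 at EPS 0h control, a difference of 1.14, and from -4.25 ± 0.33 to -2.96 ± 0.28 in *Tug1* KD myotubes, a difference of 1.28 (SD, n = 6, adjusted p = 0.00731 for each, exact permutation test). The ratio of *Nr4a3* over *Nr4a2* rose by 1.73 and 1.61 with the same adjusted p = 0.00731 in exact permutation tests. The 4 comparisons of EPS 3h with Rest for these ratios gave differences of 0.97 to 2.09, again with adjusted p = 0.00731 in exact permutation tests. That raw p of 0.00216 is the smallest that 6 libraries against 6 allow, and the libraries of the groups did not overlap in any of the 8 comparisons. The ratio of *Nr4a1* over *Nr4a2* was higher at EPS 3h than at Rest by 1.12 in control (adjusted p = 0.039, exact permutation test) and by 0.84 in *Tug1* KD myotubes (adjusted p = 0.0633, exact permutation test). These tests did not take the replicate sets into account. Within the sets the control difference was 1.12 in both, and that in *Tug1* KD myotubes was 0.89 in replicates 1 to 3 against 0.80 in replicates 4 to 6. At EPS 0h the ratio was higher than at Rest by 0.59 in control (adjusted p = 0.164, exact permutation test) and by 0.32 in *Tug1* KD myotubes (adjusted p = 0.321, exact permutation test). With same-numbered libraries taken as pairs, an alternative added after the values had been seen, both were higher in 6 of 6 pairs and passed the threshold (adjusted p = 0.0422 for each, exact two-sided sign-flip permutation test). So did, between EPS 0h and EPS 3h in *Tug1* KD myotubes, *Nr4a1* over *Nr4a2* (0.52), *Nr4a3* over *Nr4a2* (0.25) and *Nr4a3* over *Nr4a1* (-0.27), each in the same direction in 6 of 6 pairs. The raw p of 0.0312 behind these values is the smallest that 6 pairs allow, and 20 of the 27 tests reached it. A library was most like its own number in 2 of 6 cases for EPS 0h against Rest in control. In *Tug1* KD myotubes this was 3 of 6, for EPS 0h against Rest and for EPS 3h against EPS 0h. The numbers are thus not shown to mark matched wells.

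With knockdown, the ratio of *Nr4a3* over *Nr4a1* was higher in *Tug1* KD than in control myotubes by 0.31 at Rest, 0.46 at EPS 0h and 0.36 at EPS 3h. The difference passed the threshold at EPS 0h (adjusted p = 0.0409, exact permutation test) and not at Rest (adjusted p = 0.117) or EPS 3h (adjusted p = 0.0633), also by exact permutation tests. At EPS 0h replicates 1 to 3 gave 0.51 and replicates 4 to 6 gave 0.42. The ratio of *Nr4a1* over *Nr4a2* differed between the LNAs by 0.25, -0.02 and -0.02, with an adjusted p of 0.528 or more in exact permutation tests. The ratio of *Nr4a3* over *Nr4a2* was higher in *Tug1* KD myotubes by 0.57, 0.45 and 0.34, with none called without pairs (adjusted p = 0.224, 0.321 and 0.442, exact permutation tests). Both replicate sets gave positive values in each condition, with 0.69 and 0.44 for Rest, 0.34 and 0.56 for EPS 0h, then 0.39 and 0.28 for EPS 3h. *Tug1* KD exceeded the same-numbered control in 6 of 6 pairs at EPS 0h, which passed the threshold with pairs (adjusted p = 0.0422, exact sign-flip permutation test), and in 5 of 6 at EPS 3h, which did not (adjusted p = 0.0703, exact sign-flip permutation test).

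**Figure D4:**
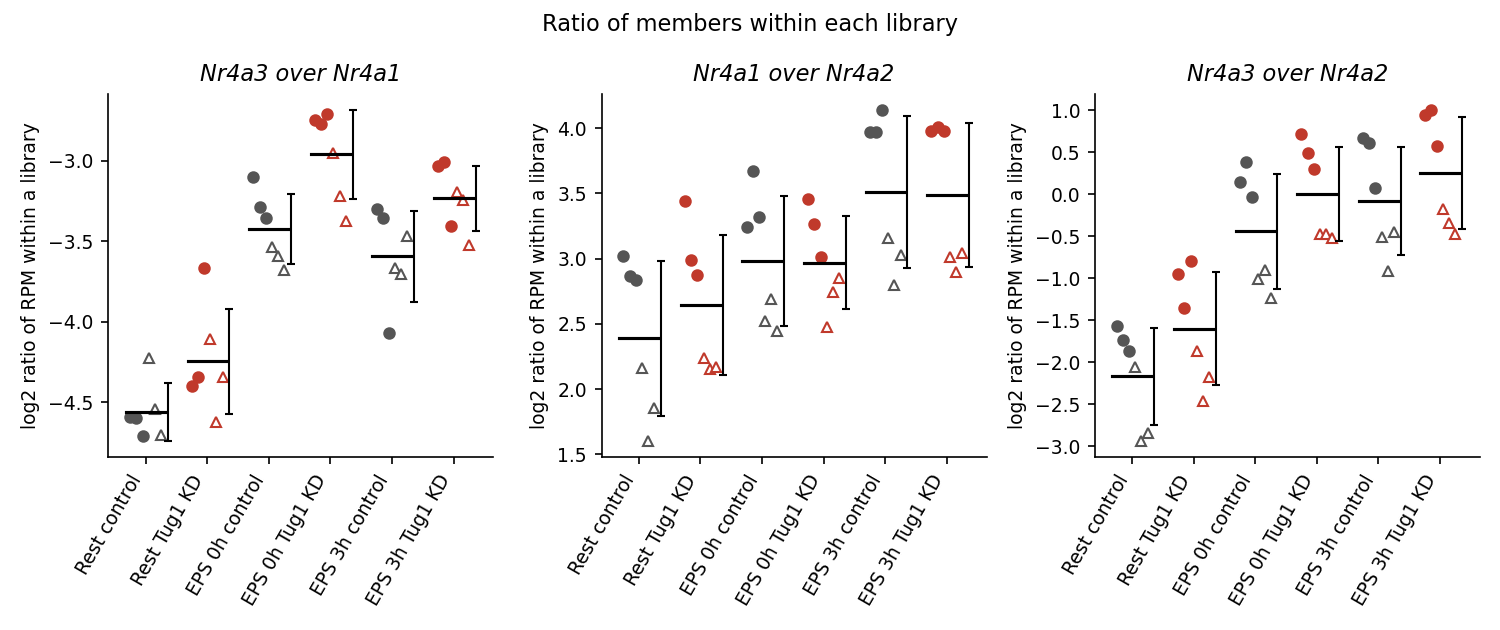
Log2 ratio of RPM between pairs of members (y axis) in each library of the 6 groups (x axis), control in grey and Tug1 KD in red. Filled circles are replicates 1 to 3, open triangles replicates 4 to 6, horizontal bars the mean and vertical bars 1 SD (n = 6). Both Nr4a3 ratios step up with EPS, and circles lie higher than triangles in every group for both ratios over Nr4a2.

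Within groups, *Nr4a1* and *Nr4a3* averaged higher in replicates 1 to 3 and *Nr4a2* in replicates 4 to 6. At Rest *Tug1* KD the *Nr4a1* means of the sets were close, at 41.8 and 41.2 RPM, and their ranges overlapped. In every group replicates 1 to 3 held more *Nr4a1* per *Nr4a2* than replicates 4 to 6, by 0.55 to 1.04 on the log2 scale, and the sets did not overlap. The same held for *Nr4a3* over *Nr4a2*, by 0.89 to 1.21. After removal of the group means, log2 RPM of *Nr4a1* and *Nr4a3* correlated at r = 0.78 over the 36 libraries, *Nr4a1* and *Nr4a2* at r = -0.36, and *Nr4a2* and *Nr4a3* at r = -0.39. These libraries share wells of 2 experiments, and which replicate numbers belong to which experiment is not given in the sources used here.

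The genes whose log2 RPM was most like that of each member over the 36 libraries, which fall into the 6 groups, were listed as a description. For *Nr4a1* they were *Pparg*, a nuclear receptor of lipid storage (r = 0.943), *Lrrc28* (0.939), *Noct*, nocturnin, a product of the circadian clock (0.937), *Ippk*, an inositol phosphate kinase (0.933), and *Clk4*, a kinase of splicing factors (0.927). For *Nr4a2* they were *Slc25a25*, a mitochondrial ATP-Mg carrier (0.84), *Thbd*, thrombomodulin (0.839), *Nudt4* (0.838), *Swap70* (0.812) and *Mcm2*, a replication licensing factor (0.81). For *Nr4a3* they were *Trmt1l* (0.974), *Snx16*, a sorting nexin (0.972), *Zfp597* (0.966), *Slc30a5*, a zinc transporter (0.966), and *Gm15728* (0.963).

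Among the genes that pair with or sit beside the family, the retinoid X receptors tested were not called in the fit without replicate terms. With the replicate set as a term, a retinoid X receptor was called lower at EPS 3h. The values without that term follow. *Rxra* and *Rxrb*, the retinoid X receptors tested of 3, were not called at EPS 0h (log2 fold change -0.08, FDR = 0.665, and -0.28, FDR = 0.383), EPS 3h (-0.03, FDR = 0.878, and -0.40, FDR = 0.183) or with *Tug1* KD averaged over the conditions (0.14, FDR = 0.205, and -0.16, FDR = 0.421). Of 28 other nuclear receptors tested of 46, a list that includes *Rxra* and *Rxrb*, 9 were higher (32.1%) and 1 lower (3.57%) at EPS 0h in control myotubes. Over all genes 20.5% were higher and 18.4% lower, and the medians of the log2 fold change were 0.21 for the list and -0.03 for all genes. At EPS 3h 8 were higher (28.6%), near the 26.1% of all genes, and 3 were lower (10.7%, against 25.9%), with a median of 0.08 against -0.02. In these counts the estrogen-related receptor *Esrrb* and *Nr1i2*, the xenobiotic receptor PXR, had passed the filter on low counts only through the groups where they were high, with no Rest control or EPS 0h control library at 1 RPM. They are therefore given by level alone. *Esrrb* averaged 0.15, 0.671 and 1.12 RPM at Rest, EPS 0h and EPS 3h control, and *Nr1i2* 0.224, 0.641 and 1.51 RPM. Among the 25 receptors with a mean of at least 1 RPM on both sides of the comparison, 7 of 25 were higher at EPS 0h and 6 of 25 at EPS 3h. Over all genes tested, without that restriction, 20.5% and 26.1% were higher. *Pparg* rose by 1.24 and 1.59 (FDR = 2.4e-10 and 1.68e-13), and *Esr1*, the estrogen receptor alpha, by 0.62 and 2.08 (FDR = 0.00195 and 2.52e-13). *Nr6a1*, a receptor of germ cells, rose by 1.02 and 1.11 (FDR = 0.000179 and 2.89e-05). With *Tug1* KD averaged over the conditions 6 were higher (21.4%, against 16.1% of all genes) and 1, *Pparg* (-0.34, FDR = 0.000101), was lower (3.57%, against 17.0%), with a median of 0.13 against -0.02. Those 6 include *Esrrb* and *Esrrg*, an estrogen-related receptor of oxidative muscle, which passed the filter mainly through *Tug1* KD libraries. Of the 25 others 4 were higher, a share close to the 16.1% of all genes. *Esrrg* averaged 0.393, 0.497 and 0.699 RPM in control and 1.33, 1.61 and 1.51 RPM in *Tug1* KD myotubes at Rest, EPS 0h and EPS 3h. *Nr6a1* was higher by 0.57 (FDR = 0.000226) and *Esr1* by 0.45 (FDR = 9.98e-05). *Pparg* is named as the only receptor called lower in this fit. More receptors were called lower in each of the alternatives run for these lists, as given below.

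Of 15 genes of the cyclic AMP and CREB arm upstream of the family, 7 were higher (46.7%, against 20.5% of all genes) and 1 lower (6.67%, against 18.4%) at EPS 0h, with a median of 0.31. At EPS 3h 5 were higher (33.3%, against 26.1%) and 2 lower (13.3%, against 25.9%), with a median of 0.26. *Creb1*, the factor that binds the CRE, rose by 0.77 (FDR = 6.22e-06) and 0.60 (FDR = 0.000123), its coactivator *Crebbp* by 0.80 (FDR = 0.000146) and 0.88 (FDR = 2.23e-05), and *Sik1*, a kinase that restrains CREB coactivators, by 0.75 (FDR = 1.23e-05) and 0.77 (FDR = 3.34e-06). *Crtc1*, such a coactivator, fell by 0.999 at EPS 0h (-0.999, FDR = 5.69e-06) and 0.63 at EPS 3h (-0.63, FDR = 0.00102). With *Tug1* KD 2 were higher and 3 lower (13.3% and 20%, close to the 16.1% and 17.0% of all genes), with a median of -0.0024. *Crem*, a CREB relative that is itself induced by cyclic AMP, was lower (-0.40, FDR = 0.000716), and *Pde4d*, which breaks down cyclic AMP, was higher (0.37, FDR = 0.000671). *Crtc1* was lower (-0.23, FDR = 0.0461).

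Of 21 tested genes, of 23, of the calcium, calcineurin, MEF2 and class IIa HDAC arm, 6 were higher and 5 lower at EPS 0h (28.6% and 23.8%, against 20.5% and 18.4% of all genes), with a median of 0.18. At EPS 3h 7 were higher and 6 lower (33.3% and 28.6%, against 26.1% and 25.9%), with a median of 0.24. These shares are near those of all genes. The calcineurin targets *Nfatc4* (-1.22, FDR = 9.27e-05, and -1.87, FDR = 5.88e-08) and *Nfatc1* (-0.79, FDR = 0.000311, and -0.98, FDR = 9.09e-06) fell, and the kinase *Camk2d* rose (0.84, FDR = 0.00121, and 0.89, FDR = 0.000401), as did *Hdac9*, a class IIa deacetylase that represses MEF2 (0.80, FDR = 0.00357, and 0.81, FDR = 0.00191). *Nfatc3*, a calcineurin target of the same family that is named here after its values were seen, rose (0.73, FDR = 1.19e-05, and 0.48, FDR = 0.00117), and *Nfatc2* was not called (0.54, FDR = 0.281, and 0.73, FDR = 0.112). With *Tug1* KD 10 were higher (47.6%, against 16.1% of all genes) and 1 lower (4.76%, against 17.0%), with a median of 0.22 against -0.02. *Mef2c*, a myogenic transcription factor, was higher by 1.00 (FDR = 6.42e-08), *Hdac9* by 0.74 (FDR = 1.16e-05), and the kinases *Camk2b* by 0.68 (FDR = 0.000392) and *Camk2a* by 0.51 (FDR = 7.56e-07). The 1 gene called lower was *Rcan1* (-0.50, FDR = 1.52e-06), which is named here after its values were seen.

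Of 13 tested muscle metabolic genes linked to the receptors, of 15, 1 was higher and 2 lower at EPS 0h (7.69% and 15.4%, against 20.5% and 18.4% of all genes), and 2 were higher and 3 lower at EPS 3h (15.4% and 23.1%, against 26.1% and 25.9%). More of them were called lower at EPS 3h with library size only, upper quartile factors or the replicate set as a term, as given below. *Pdk4*, which limits pyruvate oxidation, fell by 0.70 at EPS 0h (-0.70, FDR = 1.16e-05) and 0.87 at EPS 3h (-0.87, FDR = 1.09e-07), and the growth factor gene *Igf1* rose by 0.72 (FDR = 0.000119) and 0.61 (FDR = 0.000518). *Cav3*, the muscle caveolin, fell (-0.44, FDR = 0.0248, and -0.58, FDR = 0.00221), and *Prkag3*, a muscle subunit of AMPK, rose at EPS 3h (0.37, FDR = 0.0397). With *Tug1* KD 3 were higher and 4 lower (23.1% and 30.8%, against 16.1% and 17.0%). The largest changes were those of the glycolytic mutase *Pgam2* (-0.59, FDR = 2.98e-07), the fatty acid transporter *Cd36* (0.59, FDR = 0.00319), the uncoupling protein *Ucp2* (-0.46, FDR = 1.09e-06) and the phosphatidate phosphatase *Lpin1* (0.35, FDR = 0.0161). These values are given beside those of the members, and no relation between them was tested.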

How the data were processed

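RNA-seq counts were analysed in 36 libraries of C2C12 myotubes, in 6 groups of 6 taken from the labels. Per the labels and the methods, stranded poly-A libraries were made from 500 ng of RNA with a spike-in, which was not used here, and read as 150 bp pairs. The authors trimmed the reads with fastp 0.14.1 (quality check with FastQC 0.11.7), aligned them to GRCm39 with STAR 2.5 and deposited raw counts per gene. The counter and its strand setting are not given in the sources used here, so reads of overlapping or antisense genes may be shared. The per-sample files equal the table in 36 of 36 cases. No 2 libraries of a group agreed within sampling noise (lowest chi-square per degree of freedom 4.26), and 0.0327% of counts fell on 1492 genes with no name.

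The 13995 genes that reached 1 RPM in 12 or more libraries were tested with edgeR 4.0.16 (R 4.3.3), robust quasi-likelihood test, TMM factors, all 6 groups in 1 fit, Benjamini-Hochberg FDR under 0.05 over all genes tested. RPM uses TMM-scaled library sizes. The study's own limma-voom test was run as an alternative (limma 3.58.1), with DESeq2 1.42.0, other scalings, filters, blocks and subsets. The test was also run on simulated counts, and the outcome of that run is not given here. Ratios were tested by exact permutation, the correlations used log2 of RPM plus 0.5, and sequences were read from GRCm39 with GENCODE vM39. Named genes were the members, *Tug1*, the retinoid X receptors, in each gene list and comparison (EPS 0h or EPS 3h against Rest in control, and the mean of *Tug1* KD) up to 4 called genes with the largest absolute log2 fold change, and the 5 genes most correlated with each member. A gene that this rule selects is not reported here. The members and gene lists were chosen with earlier results of these data known.

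Same-numbered libraries were checked for pairing by the correlation of their deviations from group means. Every pair exceeded 0.1 for *Tug1* KD against control at EPS 0h (0.748 to 0.847) and EPS 3h (0.267 to 0.8), for EPS 0h against Rest in both LNAs, for EPS 3h against Rest in control and for EPS 3h against EPS 0h in *Tug1* KD myotubes (0.106 to 0.864), but not in the other 3 comparisons. For *Tug1* KD against control, a library was most like its own number in 5 of 6 cases at EPS 0h and 2 of 6 at EPS 3h. Sharing a replicate set could also give such correlations, which was not tested.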

Additional observations from a re-analysis of the deposited data

How the results depend on the processing

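The increases of *Nr4a1* and *Nr4a3* against Rest, that of *Nr4a2* at EPS 0h, the decreases of *Nr4a1* and *Nr4a2* at EPS 0h and their averages over the conditions kept direction and call in all 17 alternatives each. For the averages, the alternative with only the groups compared holds all 6 groups. It therefore repeats the main fit (4633 genes called in both) and adds no check. The calls of *Nr4a2* at EPS 3h and those at Rest were closest to the threshold. Rest levels of *Nr4a3* rest on few reads, and no library of 18 member groups stood apart by Dixon's test. For every change listed here the cause was not tested.

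Among the decreases with *Tug1* KD, *Nr4a1* lost its call at Rest in replicates 4 to 6 (-0.22) and at EPS 3h in replicates 1 to 3 (-0.45), and *Nr4a2* lost it at Rest with no filter (-0.70) and at EPS 3h with no filter (-0.64), with only the groups compared (-0.61) and in replicates 1 to 3 (-0.41). Leaving out 1 replicate gave -0.65 to -0.49 and -0.63 to -0.52 for *Nr4a1* at Rest and EPS 3h, and -0.86 to -0.65 and -0.65 to -0.56 for *Nr4a2*. For *Nr4a2* at EPS 3h against Rest in control the call was lost with at least 10 counts in 6 libraries (0.43), library size only (0.32), no filter (0.40), upper quartile factors (0.44) and replicates 1 to 3 (0.25), and leaving out 1 replicate gave 0.38 to 0.56. In *Tug1* KD myotubes it was lost with library size only (0.44) and no filter (0.46), and leaving out 1 replicate gave 0.52 to 0.70.

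With the replicate block, *Nr4a1* at EPS 3h against EPS 0h in *Tug1* KD (0.30), *Nr4a2* at EPS 3h against EPS 0h in control (-0.38) and the average of *Nr4a3* (-0.25) gained a call, as they did with the replicate set term (0.30, -0.38 and -0.24), and *Nr4a2* also in replicates 1 to 3 (-0.52). The block changed no other call of a single member.

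Uncalled values near 0 changed sign. The EPS 0h interaction turned for *Nr4a1* in replicates 1 to 3 (0.068), for *Nr4a2* with limma-voom (0.032), the replicate block (0.019), the set term (0.025) and replicates 1 to 3 (0.43), and for *Nr4a3* in replicates 1 to 3 (0.091). Leaving out 1 replicate gave -0.11 to 0.067 for *Nr4a2* and -0.19 to 0.0053 for *Nr4a3*. The EPS 3h interaction turned for *Nr4a1* with DESeq2 (0.00029), library size only (0.0012) and replicates 1 to 3 (0.39), for *Nr4a2* in replicates 4 to 6 (-0.19), and for *Nr4a3* with limma-voom (-0.011), no filter (-0.028), the replicate block (-0.027), the set term (-0.015) and replicates 4 to 6 (-0.36). Leaving out 1 replicate gave -0.14 to 0.14 for *Nr4a1* and -0.10 to 0.13 for *Nr4a3*. *Nr4a3* at EPS 3h against EPS 0h turned in *Tug1* KD with library size only (-0.032) and no filter (-0.042), and in control in replicates 4 to 6 (0.16) with -0.12 to 0.034 on leaving out 1 replicate.

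For the ratio of *Nr4a3* over *Nr4a1*, a pseudocount of 0.5 RPM brought the *Tug1* KD differences at Rest (0.35) and EPS 3h (0.37) past the threshold, and the difference of EPS 0h from Rest in control came to 1.38 (replicates 1 to 3) and 0.89 (replicates 4 to 6). With the replicate block, added after seeing the data as a test of same-numbered pairs, 10 of the 27 ratio tests gained a call at an unchanged difference and none lost one. For *Nr4a1* over *Nr4a2* these were *Tug1* KD at Rest (0.25), EPS 0h against Rest (0.59 in control and 0.32 in *Tug1* KD), EPS 3h against Rest in *Tug1* KD (0.84) and EPS 3h against EPS 0h (0.53 and 0.52). For *Nr4a3* over *Nr4a2* they were *Tug1* KD at Rest (0.57) and EPS 0h (0.45) and EPS 3h against EPS 0h in *Tug1* KD (0.25), and for *Nr4a3* over *Nr4a1* the latter comparison (-0.27). In 4 of the 10 (both at Rest, EPS 3h against Rest in *Tug1* KD and EPS 3h against EPS 0h in control) the libraries share only a number. In the others a library was not always most like its own number.

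Counts of list members, recomputed with 4 alternatives chosen after seeing the data, moved by over 1.5 times as follows. With library size only, the other nuclear receptors called lower went from 1 to 4 at EPS 0h and from 3 to 6 at EPS 3h, the CREB arm called lower from 1 to 2 at EPS 0h, and the metabolic genes at EPS 3h from 2 higher and 3 lower to 1 and 7. With upper quartile factors, other receptors called lower at EPS 0h became 2 and the metabolic genes at EPS 3h 1 and 5. With the set term, 1 retinoid X receptor was lower at EPS 3h, other receptors called lower at EPS 0h became 3, and the metabolic genes became 2 higher at EPS 0h, 6 lower at EPS 3h and 6 higher with *Tug1* KD. Other receptors lower with *Tug1* KD went from 1 to 2 under all 4. Over all genes in control myotubes, 5441 were called in either direction at EPS 0h and 7275 at EPS 3h. These became 5807 and 8210 with library size only, 5564 and 7439 with upper quartile factors, and 6737 and 8377 with the set term. With *Tug1* KD, 4633 became 4811, 4876 and 5834 in turn. Shares of all genes by direction under these alternatives are not given, so the list counts are not read as results about the lists.

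Genes called with *Tug1* KD numbered 1401 at Rest, 2005 at EPS 0h and 1608 at EPS 3h, and became 2410, 3406 and 2878 with the replicate block, 2232, 3178 and 2610 with the set term, and 866, 940 and 852 in replicates 1 to 3. They were 2256 at Rest in replicates 4 to 6, 1295 and 925 at EPS 0h and EPS 3h with no filter, and 831 at EPS 3h with only the groups compared. The average over conditions called 4633, and 2874 in replicates 1 to 3. EPS 0h against Rest in *Tug1* KD called 6388, and 3980 in replicates 4 to 6. EPS 3h against Rest called 7275 in control and 7293 in *Tug1* KD, and 11468 and 12730 with no filter. EPS 3h against EPS 0h called 2317 in control (3531 with the block) and 2200 in *Tug1* KD (3366 with the block, 3854 with no filter, 1290 in replicates 1 to 3). The interaction called 0 and 1 gene, 1 and 8 with the block, and 1 and 1 with the set term, and the single EPS 3h call fell to 0 without replicate 2, 3 or 4. Without replicate 4 the calls fell to 1284 and 990 for *Tug1* KD at EPS 0h and EPS 3h and to 1439 for EPS 3h against EPS 0h in *Tug1* KD, and without replicates 2 and 5 in turn to 1016 and 1063 for *Tug1* KD at EPS 3h.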
